A study of Rattus norvegicus with 4 samples.

Results

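Ttc3 (ENSRNOG00000001682) is the host of 10 of the 4942 circular RNAs (circRNAs) listed for rat sciatic nerve, chosen as every circRNA whose deposited host symbol is Ttc3. The nerves came from Sprague-Dawley rats at postnatal week 6 and were taken 24 h after surgery. In the crush group, 3 mm of the sciatic nerve was crushed 2 times for 15 s with a 3 s pause, and the piece taken included 1 mm of nerve at both ends. In the sham group the nerve was exposed and not crushed. There were 2 total RNA libraries a group, and the labels do not say whether they came from separate animals, so their spread may be technical. The gene was selected on its junction reads in these libraries, which were known to be lower after crush, so its levels in the 2 groups are given as a description, with no test. The tests of Ttc3 below concern how the reads are divided among its circRNAs, which the choice of the gene did not use. Tests of other host genes compare their levels between the groups, for lists chosen with earlier results of these data known.

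A circRNA forms when a downstream splice site is joined back to an upstream one, and reads across that back-splice junction count it apart from the linear mRNA of its host. The ring has no free ends, which makes circRNAs slow to decay in many cells, and one gene can give several rings when splice sites are joined in different combinations. Ttc3 encodes a large protein with tetratricopeptide repeats and a RING domain, a ubiquitin ligase reported to act on the kinase Akt and to bind citron kinase, with effects on neurite growth. The linear Ttc3 mRNA was not analysed here, and in whole nerve fewer cells of a type and less RNA per cell cannot be told apart.

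The libraries held 8250 to 9027 back-splice junction reads each, with 8250 and 9027 after crush and 9018 and 8726 after sham. Their circRNA hosts gave few reads for the defining genes of nerve. Of 24 Schwann cell and myelin markers, 5 hosted a circRNA, with summed reads of 6 and 4 after crush and 13 and 16 after sham, and Sox10 was among those with none. Ugt8 had the most reads of the 5, with 4 and 4 after crush and 8 and 7 after sham. It was the only 1 of the 5 tested, with a log2 change of -0.68 ± 0.75 (SE, adjusted p = 0.628, edgeR). Mbp, a main myelin protein gene, had 3 reads, all in sham replicate 2. Absence of a circRNA says nothing of the linear mRNA of these genes.

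The 10 Ttc3 circRNAs lay on the plus strand of chromosome 11 between 34600704 and 34668255 in Rnor_6.0, a stretch of 67551 bases. Coordinates are those of the files, whose base convention was not stated. The 10 used 4 starts and 7 ends, and 9 of them shared at least one end with another Ttc3 circRNA. The files classed 6 as exonic and 4 as intronic. The start at 34612627 and the start 1088 bases upstream of it, at 34611539, were each joined to the same 3 ends, 34614139, 34616155 and 34631134. All 3 circRNAs of the downstream start were classed as exonic and all 3 of the upstream start as intronic. The start at 34631080 served 3 further exonic circRNAs, ending at 34644080, 34663040 and 34668255. It lay 54 bases before the end at 34631134, so the last bases of one set of rings were the first bases of the other. The remaining circRNA ran from 34600704 to 34624408, shared neither end and was classed as intronic.

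**Figure D1:**
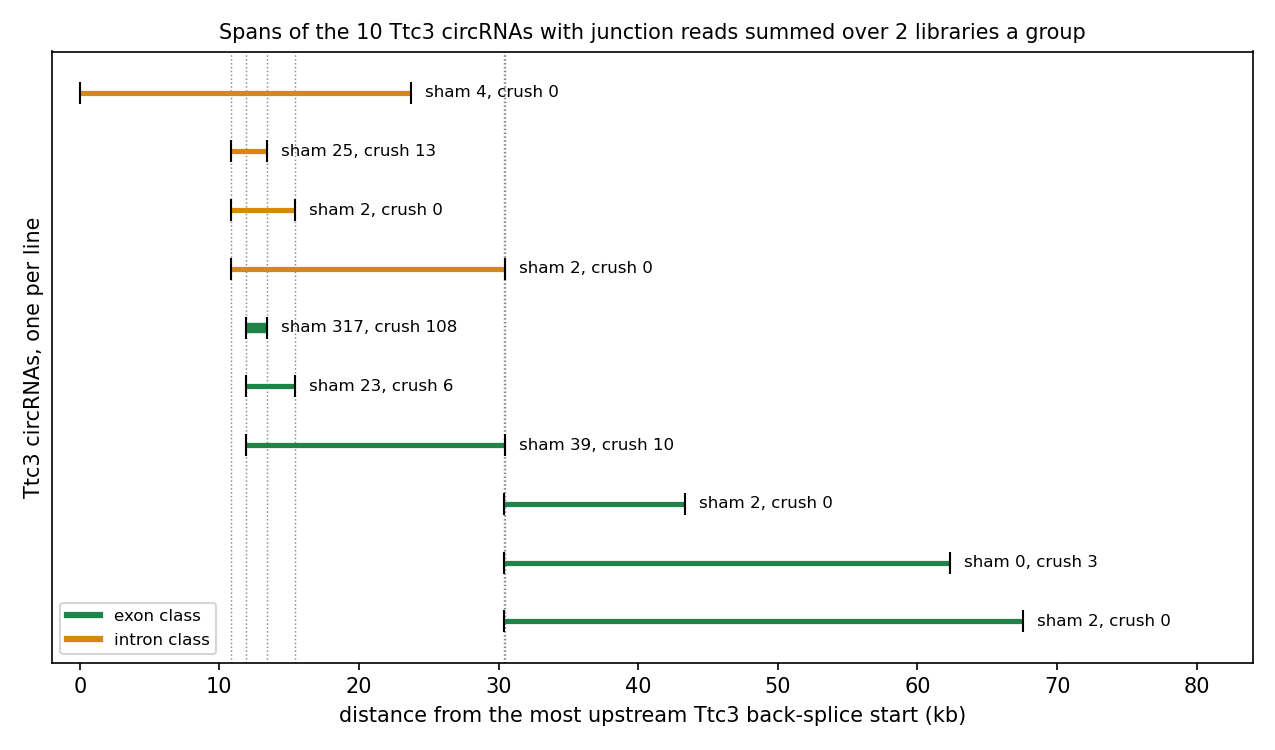
Each line is one Ttc3 circRNA, drawn from its start to its end as distance in kb from the most upstream start, in green for the exon class and orange for the intron class. Labels give junction reads summed over the 2 libraries of a group, dotted lines mark starts and ends used more than once, and the short thick line is the lead circRNA with 317 sham and 108 crush reads.

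One circRNA carried most of the signal. The exonic circRNA from 34612627 to 34614139, called the lead circRNA below, spans 1512 bases of genome and held 425 of the 556 Ttc3 reads (76.4%). It had 47 and 61 reads in crushed nerve against 179 and 138 in sham nerve. In SRPBM, the deposited signal that scales junction reads to the size of the library, the crush libraries stood at 3.41 and 3.65 (mean 3.53 ± 0.17, SD, n = 2) and the sham libraries at 13.0 and 10.9 (mean 11.9 ± 1.55, SD, n = 2), a ratio of sham to crush of 3.39. Both crush libraries lay below both sham libraries. In the fit over all 428 circRNAs that had at least 5 reads in at least 2 libraries (edgeR, scaled by the trimmed mean of M values, TMM), the log2 change was -1.33 ± 0.33 (SE), a fall of 2.51-fold. With library totals from the SRPBM constants in place of TMM it was -1.76. Of the 428 circRNAs, 7.48% passed as higher and 4.44% as lower after crush (adjusted p under 0.05), which is given as background only, since this contrast was used in choosing the gene. Among all circRNAs the lead ranked 4 by reads in both sham libraries, and 11 and 8 in crush replicates 1 and 2. Only 12.1% of the 3731 exonic circRNAs listed had a shorter span, against a median of 8809 bases.

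Summed over its circRNAs, Ttc3 made up 2.55% (95% interval 2.23% to 2.90%) and 2.13% (1.84% to 2.46%) of all junction reads in sham replicates 1 and 2, and 0.739% (0.566% to 0.949%) and 0.875% (0.693% to 1.09%) in crush replicates 1 and 2. All intervals on shares are exact Clopper-Pearson intervals and cover counting error only. The summed log2 change was -1.36 ± 0.24 (SE) over 434 host genes tested. Among host genes Ttc3 ranked 2 and 3 by reads in the sham libraries and 7 and 4 in the crush libraries.

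Besides the lead, 3 Ttc3 circRNAs were called in every library, with 49, 38 and 29 reads in all against the lead's 425. The exonic circRNA from 34612627 to 34631134 spans 18507 bases and shares the lead's start. It had 6 and 4 reads in crushed nerve against 14 and 25 in sham nerve, or 0.337 ± 0.138 and 1.49 ± 0.67 SRPBM. Its fitted log2 change was -1.74 ± 0.58 (SE). Of the 4 circRNAs called in every library, it had the sham libraries furthest apart relative to their mean.

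The intronic circRNA from 34611539 to 34614139 spans 2600 bases and shares the lead's end. It had 4 and 9 reads in crushed nerve against 14 and 11 in sham nerve, or 0.414 ± 0.175 and 0.943 ± 0.109 SRPBM, with a fitted log2 change of -0.71 ± 0.54 (SE). This was the change nearest 0 of the 4, and it depended on the crush library kept: it was -0.22 without crush replicate 1 and -1.24 without crush replicate 2, where the circRNA from 34612627 to 34616155 was nearer 0 at -1.12.

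The exonic circRNA from 34612627 to 34616155 spans 3528 bases and also shares the lead's start. Its 4 and 2 reads in crushed nerve against 15 and 8 in sham nerve gave 0.205 ± 0.121 and 0.861 ± 0.328 SRPBM. The fitted log2 change was -1.67 ± 0.73 (SE), and it entered the fit through its sham libraries alone, since neither crush library reached 5 reads. In scaled counts, both crush libraries were below both sham libraries for each of these 4 circRNAs, beside 28.0% of all 428 circRNAs tested. Nothing is read from that count, for the same reason.

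**Figure D2:**
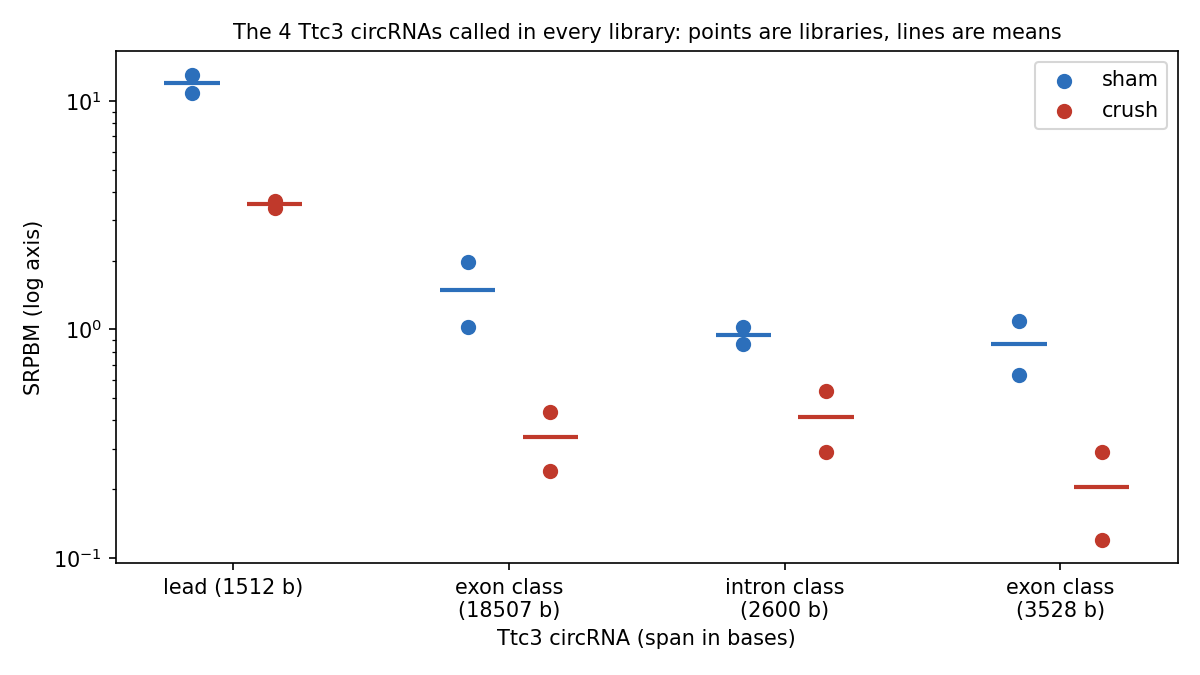
SRPBM on a log axis for the 4 Ttc3 circRNAs called in every library, named by class and span in bases, with one point per library and a line at the mean of each group of 2. For all 4, both crush points lie below both sham points, and the lead stands above the others at 3.53 SRPBM after crush and 11.9 after sham.

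The other 6 Ttc3 circRNAs were each called in 1 library, with 2 to 4 reads. The circRNA from 34600704 to 34624408 had 4 reads in sham replicate 1. Sham replicate 1 also gave 2 reads each to the circRNAs from 34611539 to 34631134 and from 34631080 to 34668255. Sham replicate 2 gave 2 reads each to those from 34611539 to 34616155 and from 34631080 to 34644080. The circRNA from 34631080 to 34663040 was the only one of the 6 seen after crush, with 3 reads in crush replicate 2. Thus 5 of the 6 were called in a sham library and 1 in a crush library, where Ttc3 had fewer reads in all. A listed count was either 0 or at least 2, so a 0 can hide a read, and at this depth presence in one group and not in the other was not detectable for these 6. Of all 4942 circRNAs, 72.6% were likewise called in 1 library and 6.13% in all 4, against 4 of 10 for Ttc3. These shares depend on depth, and Ttc3 had 556 reads beside a median of 4 over all hosts.

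The lead held about the same share of Ttc3 reads in every library, crushed or sham. The lead took 77.0% (95% interval 64.5% to 86.8%) and 77.2% (66.4% to 85.9%) of Ttc3 reads in crush replicates 1 and 2, and 77.8% (71.9% to 83.0%) and 74.2% (67.3% to 80.3%) in sham replicates 1 and 2. The mean share over crush libraries was 77.1% ± 0.12 (SD, n = 2) and over sham libraries 76.0% ± 2.57 (SD, n = 2). The difference of 1.12 percentage points was smaller than the spread between the sham replicates (exact permutation p = 1, two-sided, where 2 against 2 can give no less than 0.333). The replicates of a group did not differ in this share beyond counting error either (Fisher's exact test, p = 1 for crush and p = 0.418 for sham).

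The lead was also set against the remaining 9 circRNAs. Each read of the others was matched by 3.36 and 3.39 lead reads after crush and by 3.51 and 2.88 after sham. With the libraries of a group summed, 108 lead and 32 other reads after crush against 317 and 99 after sham gave an odds ratio of 1.05, with a 95% interval of 0.657 to 1.72 from counting error alone. A shift of the lead against the others within that range would not have been seen. The other 9 together had 1.05 ± 0.04 SRPBM (SD, n = 2) in crushed nerve against 3.75 ± 0.04 (SD, n = 2) in sham nerve, a ratio of 3.58 beside 3.39 for the lead.

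**Figure D3:**
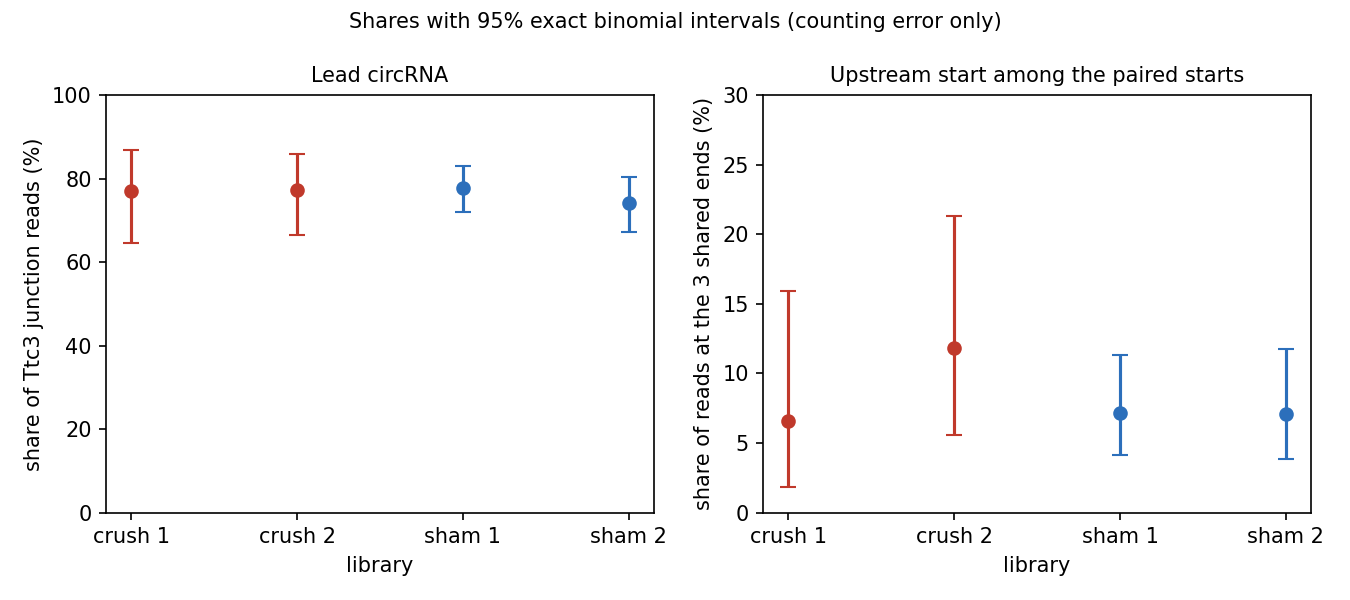
Left, the lead circRNA's share of Ttc3 junction reads in each library, and right, the share of reads of the upstream start (34611539) among reads of both paired starts at their 3 shared ends, in percent with 95% exact binomial intervals. The lead's share lies between 74.2% and 77.8% in all 4 libraries, and the intervals of the upstream start overlap in all 4.

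Relative usage was then tested in a model. Each circRNA with at least 10 reads over the 4 libraries was compared with its host's total (edgeR's diffSpliceDGE) where the host had at least 2 such circRNAs, which left 197 circRNAs of 79 hosts. None of the 197 passed the adjusted threshold (background 0%), and 11 had an unadjusted p under 0.05. Of the hosts 0 passed and 8 had an unadjusted p under 0.05. For Ttc3 as a host the adjusted p was 0.894. Relative to the Ttc3 total, the intronic circRNA at 34611539 to 34614139 had a log2 change of 0.63 (95% interval -0.998 to 2.25). The exonic one ending at 34631134 had -0.39 (-1.88 to 1.09) and the one ending at 34616155 had -0.34 (-2.09 to 1.42), each of the 3 with adjusted p = 0.991. For the circRNAs ending at 34631134 and 34616155 the intervals allow changes of usage of more than 2-fold either way. The lead's own value was 0.01, and since the lead is most of the total it is compared with, that value is held near 0.

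Read by ends, the start at 34612627 carried 503 of the 556 Ttc3 reads (90.5%) and the end at 34614139 carried 463 (83.3%). The share of that start was 93.4% and 84.8% after crush and 90.4% and 91.9% after sham, with the sham values inside the range of the crush values (exact permutation p = 1). The share of that end was 83.6% and 88.6% after crush and 83.9% and 80.1% after sham (exact permutation p = 0.667). The end at 34631134, which closes the rings of 18507 and 19595 bases, had 9.84% and 5.06% of reads in crushed nerve against 6.96% and 13.4% in sham nerve. The groups overlapped in each of these shares. The shares of the main start and end are mostly the lead itself: without it, the difference of crush minus sham went from -2.06 to -10.4 percentage points for the start and from 4.10 to 14.1 for the end, over 131 reads. Without the lead the groups still overlapped for the start, while for the end both crush libraries lay above both sham libraries. That end then held only the circRNA from 34611539 to 34614139. It had 4 and 9 of 14 and 18 reads after crush, and 14 and 11 of 51 and 48 after sham. The same reads enter the upstream start's share at the lead's end below.

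The upstream start was the minor one at each of its ends. At the lead's end it gave 38 reads against 425 (8.21%, 95% interval 5.87% to 11.1%), at 34616155 it gave 2 against 29 (6.45%, 0.791% to 21.4%), and at 34631134 it gave 2 against 49 (3.92%, 0.478% to 13.5%). Over the 3 ends its share was 6.56% and 11.8% after crush and 7.14% and 7.07% after sham (exact permutation p = 1). The crush replicates differed more from each other than from the sham libraries. At the lead's end alone, which held 38 of the 42 reads of the upstream start, its share was 7.84% and 12.9% in crushed nerve against 7.25% and 7.38% in sham nerve. Both crush values there lay above both sham values, with the smallest p that 2 against 2 can give (exact permutation p = 0.333), and the intervals overlapped. Of the reads from the upstream start, 90.5% (77.4% to 97.3%) ended at 34614139, against 84.5% (81.0% to 87.5%) of those from the start at 34612627, so the intervals overlap.

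A circRNA that is not assigned to Ttc3 used one of its starts. It ran from 34631080 to 34738852 on the same strand, spans 107772 bases and was classed as intergenic. It had 2 and 0 reads in crushed nerve against 0 and 10 in sham nerve. The sham replicates thus differed as much as the groups did. No other circRNA overlapped the Ttc3 stretch.

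Ttc3 combined many circRNAs with a strong lead. Of 2327 host genes, 12 gave more than 10 circRNAs and 3 others also gave 10, while the median was 1. Nfix and Mlip were the 2 hosts with more junction reads than Ttc3. Among the 16 hosts with at least 10 circRNAs, the lead's share ranged from 16.2% to 76.4% with a median of 34.5%, and Ttc3 had the highest. Mlip, with 9 circRNAs just under that minimum and 585 reads, had 83.1%. The next highest of the 16 were Herc1, a ubiquitin ligase gene, at 66.2% of 68 reads, and Nf1, a Ras regulator gene, at 62.3% of 61 reads. Ash1l, with 16 circRNAs, had 19.8% of 247. Among all 96 hosts with at least 2 circRNAs and 50 reads, 35 had a higher lead share than Ttc3 and 60 a lower one, around a median of 66.7%. These shares are descriptions, and the hosts differ in depth.

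**Figure D4:**
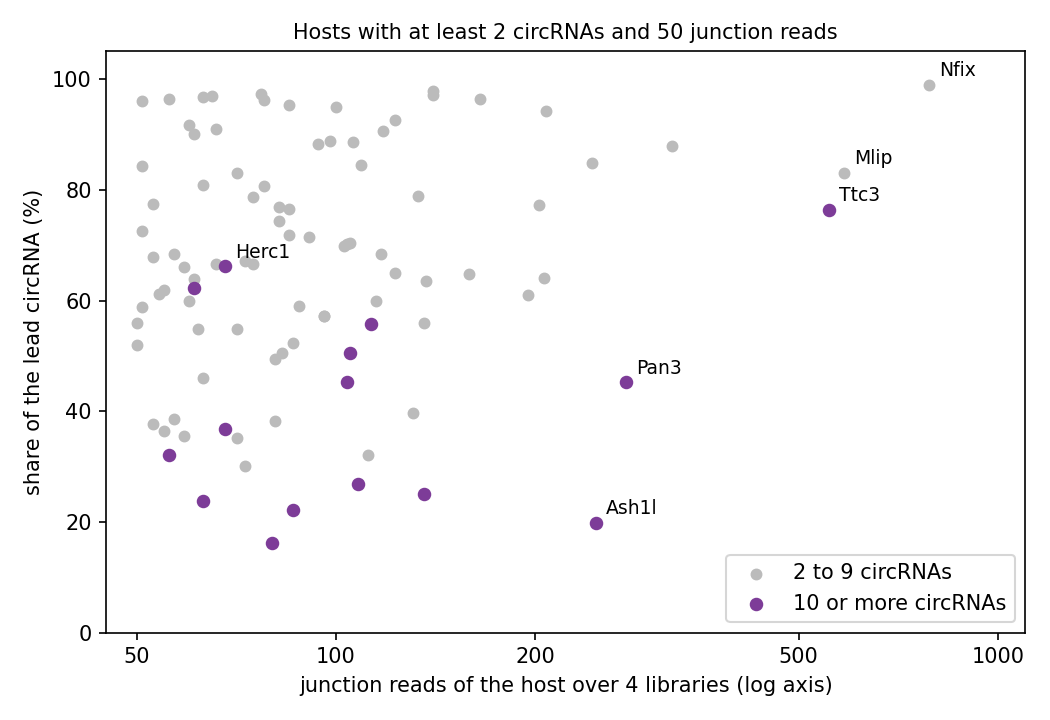
Each point is a host gene with at least 2 circRNAs and 50 junction reads over the 4 libraries, with its reads on a log axis and the share of its most abundant circRNA in percent. Hosts with 10 or more circRNAs are purple, and among them Ttc3 lies highest at 76.4%, while Nfix reaches 99.0% with 3 circRNAs.

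Pairs of splice sites that share 3 partners were seen in few hosts. Of 83 hosts with at least 6 circRNAs, 5 had 2 starts joined to the same 3 ends or 2 ends joined to the same 3 starts. They were Ash1l, Atrnl1, Eri3, Rere and Ttc3, with 108 to 556 reads each, and at lower depth such a pattern can go unseen. For Ttc3 the pattern rests on the circRNAs from 34611539 to 34616155 and from 34611539 to 34631134. Each of these had only 2 reads, in 1 sham library. Sharing of single ends was common: the share of circRNAs with a shared end was 90.0% for Ttc3, beside a median of 83.3% over 134 hosts with at least 5 circRNAs. The search for this pattern was chosen after the layout of Ttc3 had been seen.

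The lead's share was also compared between the groups across hosts. Over 88 hosts with at least 2 circRNAs, at least 50 reads and reads in every library, the mean shares of crush and sham differed by a median of 11.6 percentage points, and 3 hosts differed by less than the 1.12 points of Ttc3. With 1 library left out the signed difference for Ttc3 ran from -0.69 to 2.94 points, so its place in this order is not firm. Hosts with few reads vary more by counting alone. Among the 34 with at least 100 reads, the median was 11.4 points and 2 differed by less than Ttc3. Nfix and Mlip, the 2 hosts with more reads than Ttc3, differed by 1.15 and 0.943 points. The lead of Nfix held 97.7% to 100% of its reads in each library, which leaves little room for a difference. Spidr, with 322 reads, differed by 4.01 points, and Pan3, a deadenylation factor gene with 274 reads, by 12.5 points. In Ralgapa1, a GTPase-activating complex gene, the lead circRNA was called in 1 library only, at 92.0% of the host's reads in sham replicate 1.

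The 6 host genes whose profile over the 4 libraries was most like that of Ttc3, by the root mean square difference of centred log2 scaled counts, were Ssbp2, Zmym4, Gtf2i, Cdc42bpb, Mlip and Tenm2, at 0.145 to 0.204. Ssbp2, a transcription cofactor gene, had 4 and 6 reads in crushed nerve against 19 and 20 in sham nerve. Gtf2i, a transcription factor gene, had 3 and 6 against 16 and 12. Cdc42bpb, a kinase gene of the cytoskeleton, had 4 and 4 against 13 and 13. Mlip, a gene of striated muscle, was the only one of the 6 with depth like that of Ttc3, at 76 and 79 against 204 and 226. The likeness is over 4 libraries, and the other 5 hosts had far fewer reads. A prior count of 2 in these log2 counts draws profiles of few reads toward 0, so the order depends on depth too. The fitted log2 changes of the 6 ran from -1.90 for Zmym4 to -1.26 for Mlip, beside -1.36 for Ttc3.

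Genes that work with Ttc3 were seldom deep enough to test. Of 22 listed genes of partners of the protein and their pathways, 12 hosted a circRNA and 2 had enough reads to be tested. No tested partner passed (edgeR, adjusted p under 0.05, where 1.84% of 434 hosts passed as higher and 0.461% as lower). Cit, the citron kinase gene, had 2 and 3 reads in crushed nerve against 0 and 2 in sham nerve, and Rictor, a subunit gene of the kinase complex that phosphorylates Akt, had 0 and 2 against 3 and 4.

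Of 75 other listed ubiquitin ligase genes 41 hosted a circRNA and 19 were tested, 12 with a positive and 7 with a negative log2 change, beside 232 and 202 of all 434 hosts. Their median log2 change was 0.62 beside 0.11 for all hosts. In either direction 0 of 19 passed, beside 1.84% of all hosts as higher and 0.461% as lower. Both crush libraries lay below both sham libraries for 5 of the 19 and above for 9, beside 28.1% and 33.9% of all hosts. Ankib1, a RING-between-RING ligase gene, had 21 and 21 reads in crushed nerve against 28 and 34 in sham nerve (adjusted p = 0.656, edgeR). Herc1 had 6 and 13 against 28 and 21, a log2 change of -1.15 ± 0.55 (SE, adjusted p = 0.238), and Rnf169, a gene of the DNA damage response, had 21 and 24 against 15 and 5 (adjusted p = 0.207).

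Of 36 other genes with tetratricopeptide repeats, 17 hosted a circRNA and 2 were tested. Of these 0 passed, beside 1.84% of all 434 hosts as higher and 0.461% as lower. Ttc7a, a gene for a scaffold of a phosphoinositide kinase, had 18 and 12 reads in crushed nerve against 6 and 7 in sham nerve (adjusted p = 0.188), and Kdm6a, a histone demethylase gene, had 0 and 2 against 10 and 7 (adjusted p = 0.202). Tmtc1 had 0 and 3 against 6 and 3. Uty had 2 and 2 against 3 and 4.

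Genes near Ttc3 on chromosome 11 gave few reads. Of 22 listed neighbours, 5 hosted a circRNA and 1 was tested. Morc3, a gene for a nuclear body ATPase, had 14 and 15 reads in crushed nerve against 12 and 12 in sham nerve (adjusted p = 0.575, edgeR). Dyrk1a, a gene for a kinase of brain growth, had 5 and 4 against 0 and 2. Dopey2 had 2 and 0 against 5 and 0, and Hlcs had 4 reads, all in sham replicate 2.

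Marker genes of other cell types were read in the same libraries. The 9 leukocyte markers of 19 that hosted a circRNA summed to 73 and 60 reads in crushed nerve against 0 and 0 in sham nerve. All 5 that were tested entered the fit through their crush libraries alone, so the filter fixed their direction. Csf3r, a receptor gene of neutrophils, was the 1 of the 5 that passed (adjusted p = 0.0490, edgeR), beside 1.84% of 434 hosts as higher. Nothing is read from that call. The 5 of 16 skeletal muscle markers with a circRNA summed to 76 and 84 after crush and 207 and 235 after sham, nearly all of it Mlip. Myh1 had 0 and 0 against 3 and 5, Ryr1 had 0 and 2 against 0 and 0, Dmd had 0 and 3 against 0 and 2, and Ttn and Ckm hosted none. Of 12 fibroblast and perineurium markers, 2 hosted a circRNA, and they differed in direction. Dcn had 0 and 7 reads against 0 and 0, and Ptch1 had 0 and 0 against 3 and 3. Of 8 endothelial markers 4 did, summing to 8 and 8 against 7 and 11, also in different directions. Flt1 had 8 and 8 against 4 and 4, Tek had 0 and 0 against 3 and 3, and Emcn and Vwf each had 0 and 0 against 0 and 2. The part of these cell types in the lower level of Ttc3 circRNAs was not tested.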

How the data were processed

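Total RNA libraries of crushed and sham-operated nerve were compared, 2 of each. Per the file headers, the authors deposited back-splice junction read counts for each circRNA, as raw counts, and SRPBM, a signal that in each library equalled the count times 1 constant. The deposited length, an other kind of value, is end minus start and includes introns. CASAVA 1.8, BWA, edgeR and Rnor_6.0 are named, per the submitters' processing notes, without their roles. The name of the circRNA caller was not given in the sources used here.

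Counts were fitted with edgeR 4.0.16 (glmQLFit, glmQLFTest, TMM, Benjamini-Hochberg adjustment, threshold 0.05) in R 4.3.3, for circRNAs and host sums with at least 5 reads in at least 2 libraries. The 3 circRNAs with 2 hosts were left out of host sums. Usage was tested with diffSpliceDGE. These scripts were tested on simulated data. Alternatives were other filters, library totals from the SRPBM constants, DESeq2 1.42.0, a replicate block and leaving out each library. Of 2327 host symbols 2174 were current in RefSeq (GRCr8) and 102 matched a synonym. Named genes are all Ttc3 circRNAs, the 6 most like hosts, and of each list the 4 members with most reads plus any that passed. Some genes under this rule are not reported here. The members and lists were chosen with earlier results of these data known.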

Additional observations from a re-analysis of the deposited data

How the results depend on the processing

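The lower level of Ttc3 circRNAs after crush kept its direction in all 11 alternatives at the host level and all 10 for the lead circRNA. As the gene was chosen with this change known in the same libraries, that count is a description and not support. With library totals from the SRPBM constants the log2 change was -1.78 for the host and -1.76 for the lead, as these totals move the median of all tested circRNAs from 0.03 to -0.37. With at least 2 reads in 2 libraries or no filter the host value was -1.53. Leaving out 1 library gave -1.53 to -1.12 for the host and -1.57 to -1.12 for the lead, nearest 0 without crush replicate 1. With the replicate block it was -1.36 for the host and -1.33 for the lead. The difference in the lead's share was -0.69 to 2.94 points with 1 library left out. That of the most used start was -6.38 to 2.26 and that of the most used end 1.60 to 6.60. Without the lead circRNA these 2 became -10.4 and 14.1 points, over 131 reads. The usage value of the lead was -0.03 to 0.06 over its 7 alternatives (adjusted p 0.985 to 0.999), and 1 host passed the usage test with the replicate block.

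Counts of calls depended on the settings. Over all circRNAs 51 passed, and 0 with at least 2 reads in 2 libraries, 0 with the replicate block, 30 with DESeq2 and 6 to 76 with 1 library left out. Over hosts 10 passed, and 0 when 2 reads in 2 libraries sufficed, 44 when 10 were needed, 39 with no filter, 32 with DESeq2, 24 with the replicate block, 14 with all listed circRNAs in the library totals (added after seeing the data) and 0 to 84 with 1 library left out. Deviations of libraries with the same number correlated at -0.11 over circRNAs and -0.06 over hosts. Counting error at this depth can hide a pairing, so whether the numbers pair the libraries was not settled. With the numbers crossed in the block, 0 circRNAs and 0 hosts passed, beside 0 circRNAs and 24 hosts with the replicate block as numbered. With SRPBM totals 52.5% of circRNA calls were higher against 62.7%. Depth limits shares of Ttc3 reads, which rest on 61 and 79 reads after crush.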
